A study of Homo sapiens with 6 samples.

Results

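The genes described here are the 10 HLA class II genes HLA-DRA, HLA-DRB1, HLA-DQA1, HLA-DQB1, HLA-DQA2, HLA-DQB2, HLA-DOB, HLA-DOA, HLA-DPA1 and HLA-DPB1, out of 19821 protein-coding genes of chromosomes 1 to 22 and X. They were taken by name, and every peak in a gene or within 5 kb of either end of it was counted. ACHN, a human renal carcinoma cell line, was profiled by chromatin immunoprecipitation and sequencing in 4 ChIP libraries: H3K27me3 in ZCCHC8-KO and in ZCCHC8-WT cells, and EZH2 in ZCCHC8-KO and in ZCCHC8-WT cells. The titles of the KO libraries begin with sgZ8 and those of the WT libraries with Ctrl, and the sources do not say whether the KO cells are 1 clone. ZCCHC8 is the scaffold of the NEXT complex, which hands short-lived nuclear RNAs to the RNA exosome, and the series concerns how NEXT bears on H3K27me3 and tumours. Each antibody and genotype has 1 library, so there is no replicate error to set a difference against, and no test was made. Read depths of the libraries are not stated. In bulk chromatin, fewer marked cells and a lower level per cell cannot be told apart.

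MHC class II molecules are pairs of an alpha and a beta chain that carry peptides from engulfed proteins to the cell surface, where CD4+ T cells read them. HLA-DR, HLA-DQ and HLA-DP are the classical molecules, while HLA-DO, with HLA-DM, acts inside the cell on peptide loading. The classical genes are active in B cells, dendritic cells and macrophages and silent in most other cells until interferon-gamma induces the coactivator CIITA. H3K27me3 is the mark of Polycomb repressive complex PRC2, whose catalytic subunit is EZH2, and it marks silent genes in many tissues.

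A class II promoter carries an X box, bound by the RFX complex, and a Y box, bound by NF-Y, and CIITA acts through the proteins held there. The promoters of HLA-DQA1 and HLA-DQA2 are shown because these paralogs had the largest H3K27me3 differences of opposite sign among the members, and those of HLA-DRB1 and HLA-DOA because they hold matches to both motifs searched. Each is the 250 bases before the start of the gene in RefSeq, build GRCh38.p14. Capitals mark AGNAACNGA, written after the X box letters of these promoters had been read, and ATTGG, the Y box core, each searched on both strands (CCAAT is ATTGG on the other strand).
HLA-DQA1, chr6:32637156-32637405, plus strand: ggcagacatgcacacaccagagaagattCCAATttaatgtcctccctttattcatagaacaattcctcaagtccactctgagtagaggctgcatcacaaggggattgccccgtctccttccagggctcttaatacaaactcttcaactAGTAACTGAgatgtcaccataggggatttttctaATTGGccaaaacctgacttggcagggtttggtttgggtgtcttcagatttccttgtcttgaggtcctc
HLA-DQA2, chr6:32741141-32741390, plus strand: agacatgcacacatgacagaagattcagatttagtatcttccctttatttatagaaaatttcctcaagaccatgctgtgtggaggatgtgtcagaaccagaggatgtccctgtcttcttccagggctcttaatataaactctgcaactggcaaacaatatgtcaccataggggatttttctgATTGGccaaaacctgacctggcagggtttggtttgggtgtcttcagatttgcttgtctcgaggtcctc
HLA-DRB1, chr6:32589849-32590098, minus strand: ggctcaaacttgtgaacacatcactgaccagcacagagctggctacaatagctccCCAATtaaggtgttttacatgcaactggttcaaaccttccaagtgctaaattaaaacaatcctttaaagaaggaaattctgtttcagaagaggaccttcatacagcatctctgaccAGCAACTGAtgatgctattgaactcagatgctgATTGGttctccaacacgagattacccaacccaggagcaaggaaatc
HLA-DOA, chr6:33009592-33009841, minus strand: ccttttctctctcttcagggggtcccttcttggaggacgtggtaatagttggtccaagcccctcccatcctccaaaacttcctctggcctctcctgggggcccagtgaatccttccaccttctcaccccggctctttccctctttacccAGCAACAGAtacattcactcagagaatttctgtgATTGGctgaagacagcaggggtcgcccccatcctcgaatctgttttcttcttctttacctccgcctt

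In the full 300 bases, which reach 50 bases into the gene, ATTGG was found in 8 of the 9 members with a promoter sequence, and in 34.6% of 34961 promoters of the same length. AGNAACNGA was found in 4 of the 9, HLA-DRB1, HLA-DQA1, HLA-DOA and HLA-DPA1, and in 4.48% of all promoters. As this pattern was written after reading these promoters, its count cannot test an excess over all promoters. HLA-DPA1 held it in its promoter entry at 33073600 to 33073899 and not in that at 33080699 to 33080998. In HLA-DRB1 the X letters began 33 bases before the Y letters on the same strand, and in HLA-DQA1 and HLA-DOA 34 bases before them, with no overlap between matches. The upstream 250 bases of HLA-DQA1 and HLA-DQA2 were identical at 84.0% of aligned positions, those of HLA-DQB1 and HLA-DQB2 at 83.2%, and those of HLA-DRB1 and its paralog HLA-DRB5 at 91.7% of 206 aligned positions. Reads can be shared or lost between such paralogs. HLA-DRB1, HLA-DQA1 and HLA-DQB1 also differ strongly between haplotypes, so values of these 3 genes are uncertain.

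The class II genes lay in a stretch of chromosome 6 where H3K27me3 peaks were dense, and far more numerous than EZH2 peaks, in both genotypes. From the left end of HLA-DRA to the right end of HLA-DPB1, a span of 649810 bp, 145 H3K27me3 peaks were listed in KO and 127 in WT, covering 8.04% of the span in KO and 7.29% in WT. In the same span 20 EZH2 peaks stood in KO and 14 in WT, covering 0.823% of it in KO and 0.625% in WT. For scale, the windows of all protein-coding genes averaged 0.682% under H3K27me3 peaks in KO and 0.816% in WT, and 0.233% under EZH2 peaks in KO and 0.317% in WT. The number of H3K27me3 peaks of the span was thus higher in KO (KO/WT ratio 1.14), against ratios of 0.667 on chromosome 6 and 0.750 over the whole lists. The span includes the genes that differ strongly between haplotypes, so its counts share their uncertainty. The direction did not hold for peaks with a score of 7 or more. Of these the span had 48 H3K27me3 peaks in KO (3.44%) and 91 in WT (5.88%). Their KO/WT ratio was 0.527, against 0.307 over the whole lists at the same scores. EZH2 turned likewise, with 4 such peaks in KO and 10 in WT. This was a ratio of 0.4, against 0.206 over the whole EZH2 lists at the same scores.

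**Figure D1:**
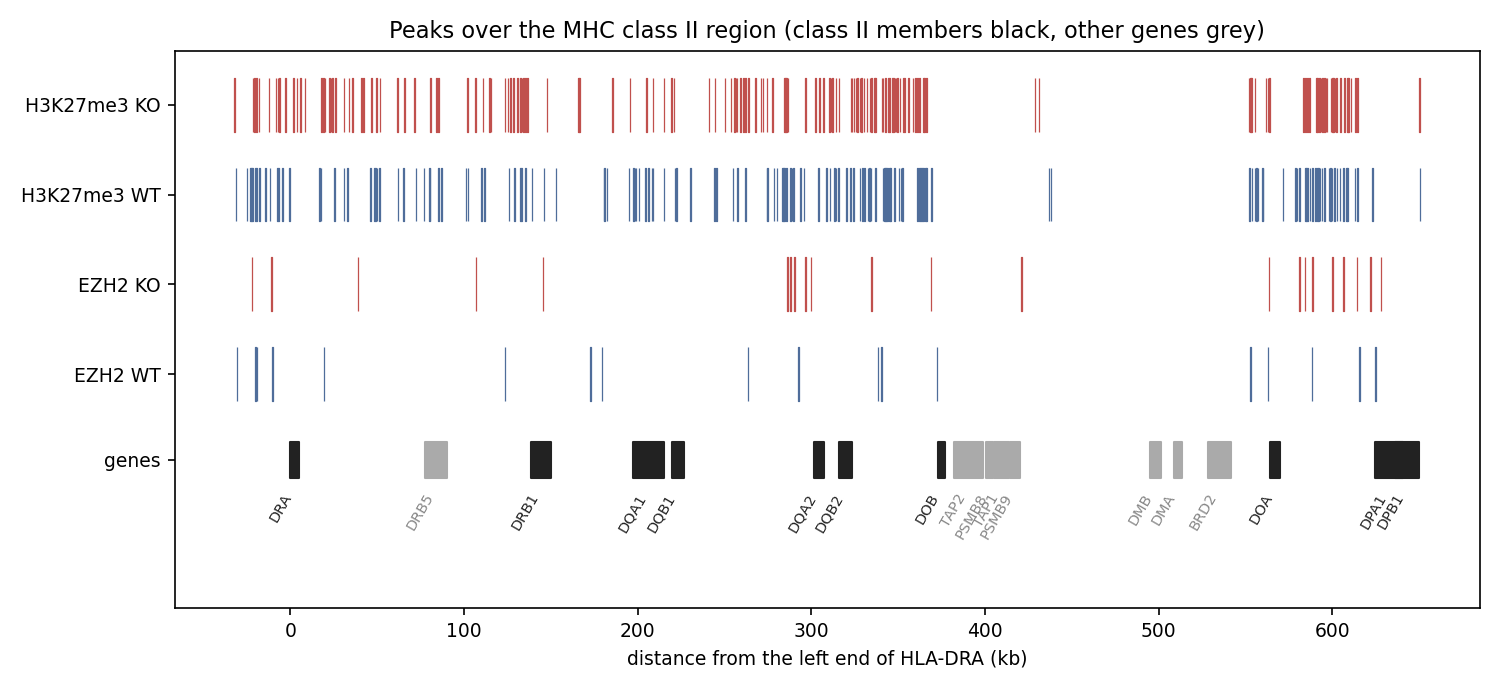
H3K27me3 and EZH2 peaks (bars, KO red, WT blue) over the MHC class II region, by distance in kb from the left end of HLA-DRA, with the 10 class II genes in black and other protein-coding genes in grey. H3K27me3 peaks stand close together on the right of HLA-DQB2 and between HLA-DOA and HLA-DPA1. The wide stretch from HLA-DOB over TAP1, HLA-DMA and BRD2 holds 2 H3K27me3 peaks in each genotype. It also holds 1 EZH2 peak in KO and none in WT.

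H3K27me3 was listed at 8 of the 10 genes in KO and at 10 of 10 in WT, against 23.1% of all protein-coding genes in KO and 26.1% in WT. In the genes without flanks it was listed at 6 in KO and at 5 in WT. The all-gene shares are for gene plus 5 kb, and none is given for genes without flanks. The counts of 8 and 10 came from windows of 14.2 to 27.9 kb (median 17.3 kb). The median window of all genes was longer, 34.5 kb. The median covered share of the members' windows was 5.51% in KO and 5.67% in WT, while the median over all genes was 0 in both. In KO, HLA-DOB and HLA-DPA1 had no H3K27me3 peak in their windows. Peaks of members that share a window are counted once in what follows, which leaves 7 separate stretches of 172406 bp in all.

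Taken over these 7 stretches, H3K27me3 covered nearly the same length in KO and WT. They held 34 peaks covering 11063 bp in KO and 35 peaks covering 10888 bp in WT, a share of 6.42% in KO and 6.32% in WT. The KO/WT ratio of peak number was 0.971. This near balance was made of opposite differences at single genes, and the sign of the small net difference turned under other windows and thresholds.

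**Figure D2:**
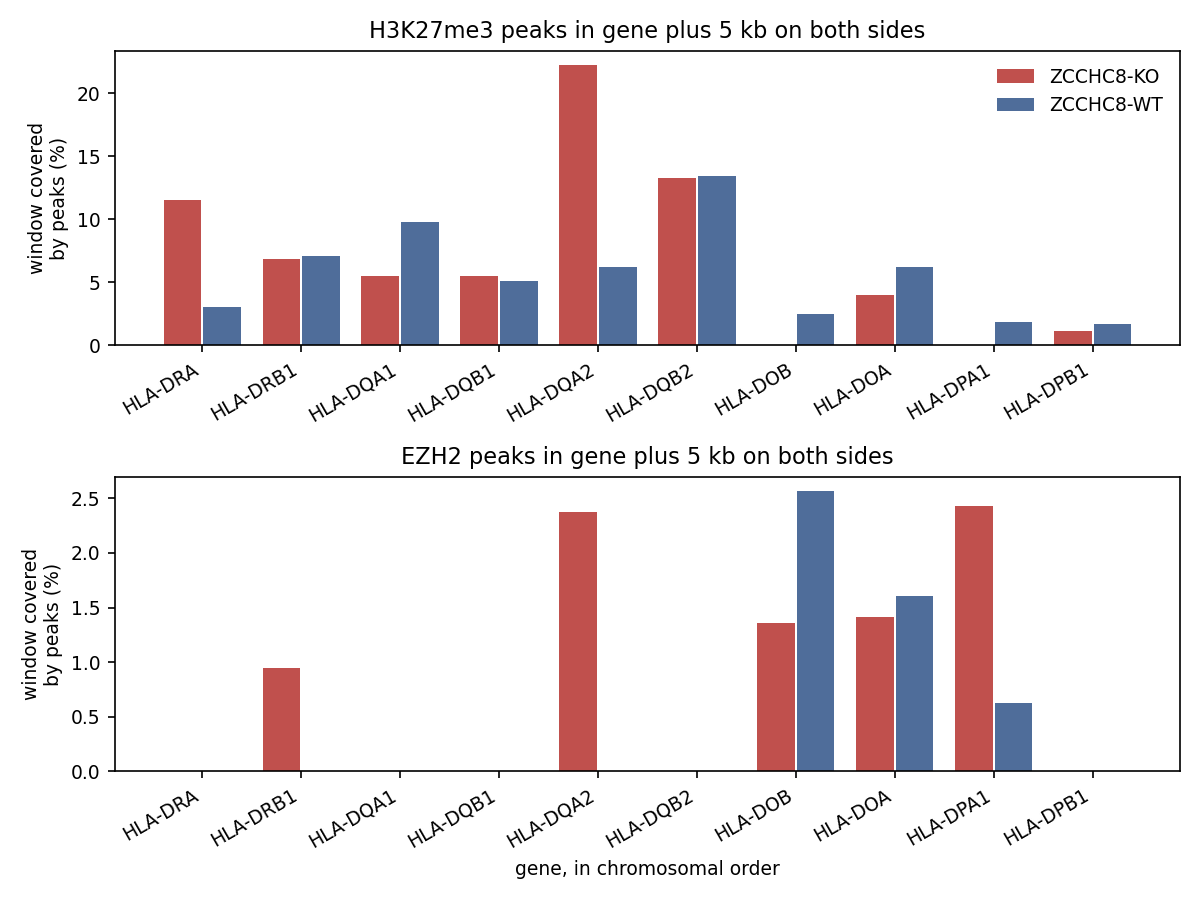
Share of each class II gene's window (gene plus 5 kb on both sides) covered by H3K27me3 peaks (top) and EZH2 peaks (bottom), in percent, KO red and WT blue, 1 library each, so no error bars. HLA-DRA and HLA-DQA2 are the genes where the KO bar stands highest above the WT bar for H3K27me3, and the EZH2 panel, on its own smaller axis, has no bar above 2.57%.

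HLA-DQA2 had the largest difference of the 10. This gene encodes an alpha chain close to HLA-DQA1 in sequence, and lies at 32741391 to 32747198 of chromosome 6. In its window 7 peaks covered 3520 bp in KO (22.3%), against 3 peaks covering 989 bp in WT (6.26%). Inside the gene itself 28.9% was covered in KO and 7.58% in WT. The widest KO peak, 1002 bp at 32744152 to 32745153 with a score of 6, overlapped the only WT peak inside the gene, 440 bp at 32743891 to 32744330 with a score of 7. A KO peak of 944 bp on the downstream side, at 32749843 to 32750786, overlapped a WT peak of 336 bp. The other WT peak, 213 bp downstream, had no KO counterpart. KO also had a peak of 484 bp near the start of the gene, at 32741890 to 32742373, where WT had none. Peaks of both genotypes therefore met at 2 places, and at each of them the KO peak was the wider one. The difference of 16.0 points ranked 7 of 19821 genes, counted from the largest excess in KO. It was 2.28 points at scores of 7 or more, 10.5 points with flanks of 2 kb and 6.97 points with flanks of 10 kb.

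HLA-DRA encodes the alpha chain that all HLA-DR molecules share, and it varies little between people. At 32439887 to 32445046 it had no H3K27me3 peak inside the gene in WT, while 2 KO peaks of 249 and 191 bp lay there, both with a score of 5. In the window 5 peaks covered 1748 bp in KO (11.5%), against 2 peaks covering 465 bp in WT (3.07%). None of these 5 KO peaks overlapped a WT peak. All 5 had scores of 5 or 6, and when peaks with a score below 7 were left out of both lists HLA-DRA had no coverage in KO and 1.31% in WT. HLA-DRA and HLA-DQA2 were the 2 of 10 members whose covered share was higher in KO by 5 points or more, against 0.878% of all genes. All genes, over which members are also ranked, include those without a peak in either list, whose difference is 0. Among the 6154 genes with an H3K27me3 peak in either list, the 5th percentile of the difference was -4.98 points and the 95th was 3.62. Window length, shorter in the members than in the median gene, was not matched.

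HLA-DQA1, the polymorphic alpha chain of HLA-DQ, differed the other way, except among peaks of 250 bp or more. Its window held 5 peaks covering 1531 bp in KO (5.49%) and 10 peaks covering 2725 bp in WT (9.78%), and inside the gene the shares were 4.84% in KO and 12.2% in WT. The 3 KO peaks that touched the gene were 257 to 328 bp long with scores of 4 to 6, and the 9 WT peaks were 184 to 656 bp long with scores of 6 to 10. With peaks below 250 bp left out of both lists, the window had 4.89% covered in KO and 4.70% in WT. Both genotypes had overlapping peaks at 32648550 and at the 3' end of the gene. A WT peak of 656 bp with a score of 8, at 32637089 to 32637744, covered all 300 bases of the promoter, including the X and Y letters shown above. No KO peak touched that promoter. Counted from the largest deficit in KO, the difference of -4.29 points ranked 391 of 19821. No member passed a deficit of 5 points, against 1.55% of all genes. When genes were taken without flanks 2 members did, HLA-DQA1 and HLA-DQB2, and no all-gene share is given for that setting.

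HLA-DQB1, the beta chain that pairs with HLA-DQA1, had 3 peaks covering 5.53% of its window in KO and 4 peaks covering 5.09% in WT. The peaks of KO and WT downstream of it, at the 3' end of HLA-DQA1, overlapped. Inside the gene the 2 KO peaks and the 2 WT peaks stood apart, and upstream WT had 1 peak and KO none. HLA-DQB2, the beta chain gene beside HLA-DQA2, was among the more covered members in both genotypes, with 10 peaks (13.3%) in KO and 7 peaks (13.4%) in WT. Within the gene, at 32756098 to 32763532, coverage was 4.76% in KO and 12.1% in WT, and the flanks had 19.7% in KO and 14.4% in WT. Each genotype had 2 peaks inside HLA-DQB2, so most of its peaks lay outside the gene in KO and in WT. The only KO peak to reach a member's promoter sequence was at HLA-DQB2, at 32763320 to 32763493. It overlapped that sequence by 11 bp within the transcribed part.

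HLA-DRB1, the most polymorphic class II beta chain, had 4 peaks in each genotype, covering 6.87% of its window in KO and 7.09% in WT. On its downstream side a KO peak of 516 bp and a WT peak of 778 bp, each with a score of 9, overlapped. The peaks inside the gene did not overlap, with 1 in KO and 2 in WT. HLA-DRB5, a related beta chain carried by some haplotypes and not one of the 10 genes, had 5.95% of its window covered in KO and 6.52% in WT.

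From HLA-DOB to the right end of the region, the gene bodies of the members held no listed H3K27me3 peak. HLA-DOA, HLA-DOB, HLA-DPA1 and HLA-DPB1 had no H3K27me3 peak between their ends in KO or in WT, and what was listed lay in the flanks. HLA-DOA, the alpha chain of HLA-DO, had 3 flanking peaks in each genotype (3.98% of the window in KO and 6.24% in WT). HLA-DOB, its beta chain, had none in KO and 1 of 350 bp in WT (2.46%). HLA-DPA1 had none in KO and 1 of 485 bp with a score of 11 in WT (1.85%), and HLA-DPB1 had 1 peak in each genotype (1.15% in KO and 1.71% in WT). Those at HLA-DPB1, 273 bp in KO and 406 bp in WT, overlapped each other downstream of the gene.

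**Figure D3:**
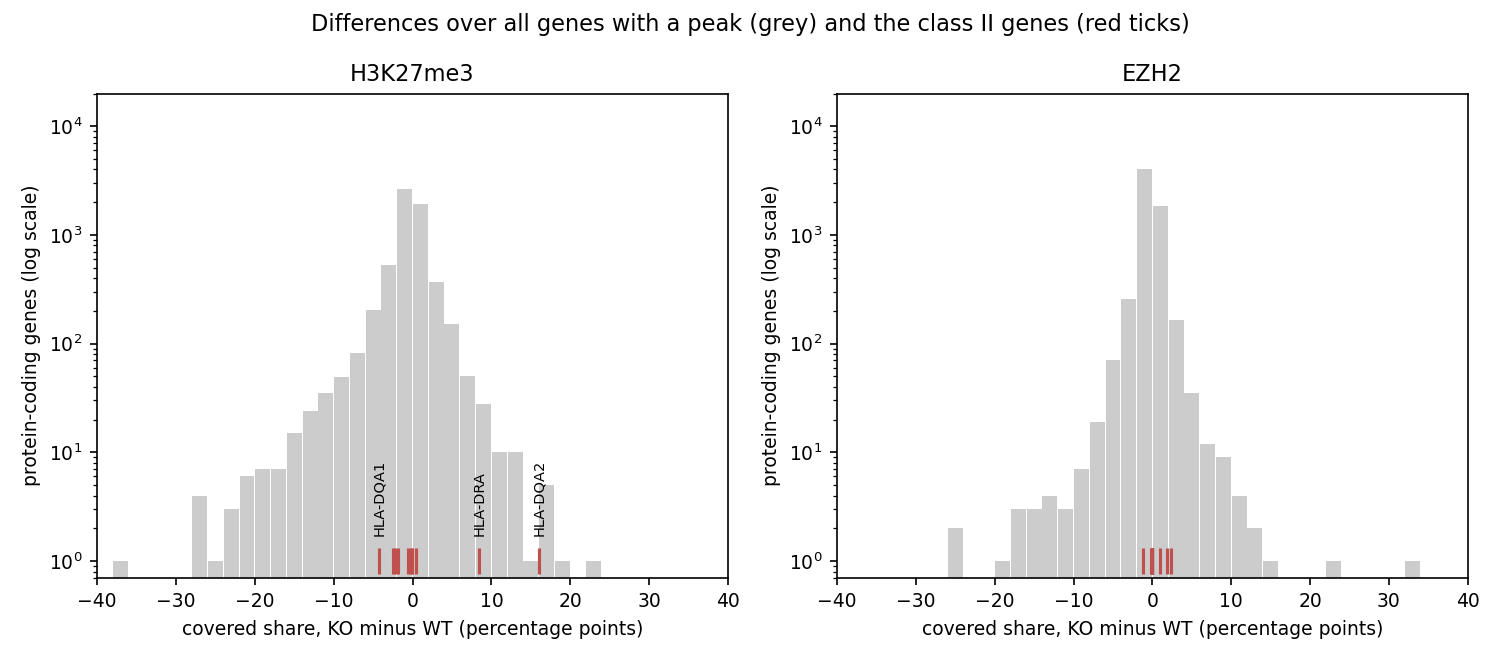
Covered share in KO minus covered share in WT, in percentage points, for all protein-coding genes with a peak in either list (grey, counts on a log axis) and for the 10 class II genes (red ticks), for H3K27me3 (left) and EZH2 (right). HLA-DQA2 at 16.0 and HLA-DRA at 8.46 points lie in the right tail for H3K27me3, and the EZH2 ticks all lie between -1.21 and 2.38 points.

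Most of the H3K27me3 peak length of the region lay between protein-coding genes, as does most of the region itself. The 49230 bp between HLA-DQB2 and HLA-DOB had 24.5% of their length covered in KO, by 30 peaks, and 24.1% in WT, by 23 peaks. Here lay the widest H3K27me3 peak of the region in WT, 3411 bp at 32801642 to 32805052 with a score of 13, while the widest KO peak, 1155 bp long, lay in the same stretch. The 54977 bp between HLA-DOA and HLA-DPA1 had 24 peaks in KO (17.5%) and 25 in WT (21.0%). With scores below 7 left out, the stretch left of HLA-DOB had 13.8% in KO and 21.3% in WT, and the stretch left of HLA-DPA1 had 7.18% in KO and 20.2% in WT. In contrast, HLA-DOB, the antigen transporter genes TAP1 and TAP2, the immunoproteasome genes PSMB8 and PSMB9, HLA-DMB, HLA-DMA and BRD2, a bromodomain gene, had no H3K27me3 peak inside them in either genotype. Left of HLA-DRA, up to BTNL2, 11.9% was covered in KO and 15.1% in WT. Between HLA-DRA and HLA-DRB5 it was 9.70% in KO (20 peaks) and 5.59% in WT (13 peaks). Between HLA-DRB5 and HLA-DRB1 it was 11.8% in KO (16 peaks) and 6.34% in WT (8 peaks). Both border HLA-DRB5, which only some haplotypes carry, so their values are uncertain. No values at scores of 7 or more are given for the stretches from BTNL2 to HLA-DRB1. All stretches named here were picked after their values had been seen, and gene ends served as their limits.

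The edges of the mark-poor stretch were close in both genotypes. H3K27me3 stopped 6.30 kb before HLA-DOB in KO and 3.40 kb before it in WT, and resumed 10.2 kb beyond BRD2 in both, at 32991717 in KO and at 32991742 in WT, positions 25 bp apart. The stretch between was 185.3 kb in KO and 182.4 kb in WT, and held 2 peaks in each. HLA-DOB thus stood just inside it, and HLA-DOA beyond its right edge. These edges are for all listed peaks. At the right edge the KO peak had a score of 7 and the WT peak a score of 6. At scores of 7 or more the mark resumed 551.8 kb from the left end of HLA-DRA in KO and 553.8 kb from it in WT.

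**Figure D4:**
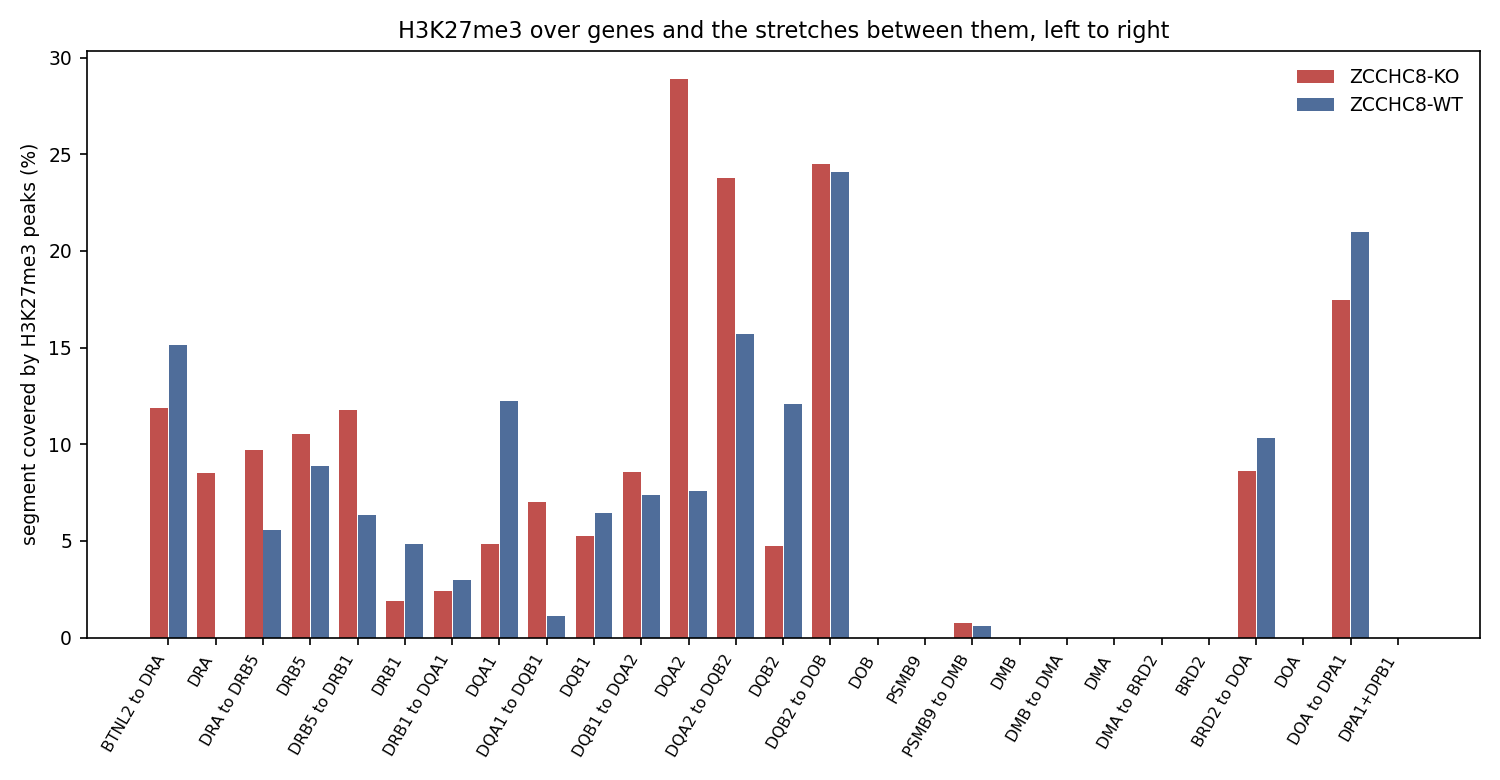
Share of each gene and each stretch between genes covered by H3K27me3 peaks, in percent, from left to right over the class II region, KO red and WT blue; TAP1, TAP2, PSMB8 and the short gaps beside them, all without peaks, are left out. Values from HLA-DOB to BRD2 are at or near 0 in both genotypes, and the HLA-DQA2 bar reaches 28.9% in KO and 7.58% in WT.

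H3K27me3 peaks at the class II genes coincided between genotypes in part. In the member windows 10 of 34 KO peaks (29.4%, 15.1 to 47.5) overlapped a WT peak by at least 1 bp, against 21.4% of the whole KO list. Of the 35 WT peaks 10 had such a KO partner (28.6%, 14.6 to 46.3), against 15.9% of the whole WT list. On chromosome 6 alone the shares were 16.0% of the KO peaks and 10.4% of the WT peaks. The intervals are exact 95% Clopper-Pearson intervals, cover counting error only, and hold the whole-list value for KO peaks and for WT peaks. The chromosome 6 value lies inside the interval for KO peaks and below it for WT peaks. When peaks within 1 kb counted as shared, 58.8% of the KO peaks and 48.6% of the WT peaks had a partner, against 45.1% of the whole KO list and 34.4% of the whole WT list. The member windows were denser in peaks, with 6.42% covered in KO and 6.32% in WT. The means over all gene windows were 0.682% in KO and 0.816% in WT. How far this density raises the shares, above all within 1 kb, was not tested. What share a repeat library of 1 genotype would give is not known from these lists.

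The scores at the class II genes were lower in KO. The score is the authors' value for each peak, and the sources do not define it. Of the H3K27me3 peaks in member windows, 6 of 34 in KO and 25 of 35 in WT had a score of 7 or more, with medians of 5 in KO and 7 in WT and ranges of 4 to 9 in KO and 5 to 11 in WT. Over the whole lists the share with such a score was 28.6% in KO and 69.8% in WT, so the whole lists differ in the same direction. With scores below 7 left out, the member windows had 1.32% covered in KO and 4.87% in WT, in place of 6.42% in KO and 6.32% in WT. HLA-DQA2 then had 7.19% in KO and 4.91% in WT, and no member was higher in KO by 5 points. No all-gene share is given at that threshold. HLA-DQB2 had 1.19% in KO and 12.2% in WT, HLA-DQA1 had no coverage in KO and 6.76% in WT, and HLA-DQB1 had none in KO and 3.90% in WT. Left out instead below the median score of each list, HLA-DQA2 had 16.6% in KO and 4.91% in WT, and HLA-DRA 7.06% in KO and 1.31% in WT. Each genotype has its own input library, and the lowest score was 4 in both KO lists and 5 in both WT lists. The level of scores and the genotype therefore cannot be told apart.

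**Figure D5:**
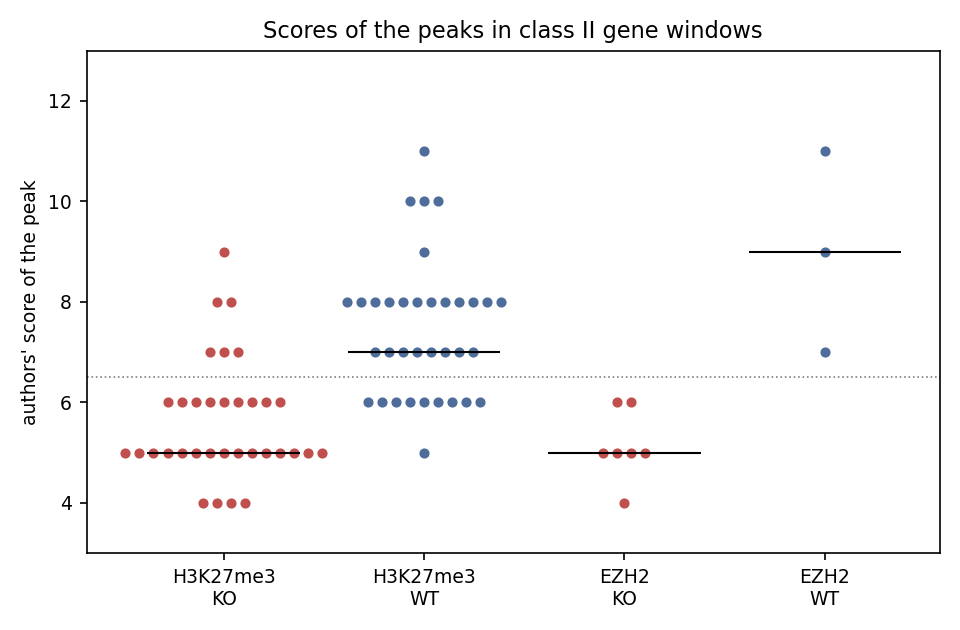
Authors' score of every peak in the windows of the class II genes, by antibody and genotype, 1 point per peak, with the median as a black line and a dotted line between scores 6 and 7. The H3K27me3 medians are 5 in KO and 7 in WT, and all 7 EZH2 peaks of KO lie below all 3 of WT.

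EZH2 was listed at 5 of 10 members in KO (HLA-DRB1, HLA-DQA2, HLA-DOB, HLA-DOA and HLA-DPA1), against 18.4% of all genes, and at 3 of 10 in WT (HLA-DOB, HLA-DOA and HLA-DPA1), against 27.2% of all genes. In all there were 7 peaks covering 1622 bp in KO and 3 peaks covering 777 bp in WT. No member differed by 5 points in either direction, against 0.212% of all genes higher in KO and 0.308% lower. HLA-DRA, HLA-DQA1, HLA-DQB1, HLA-DQB2 and HLA-DPB1 had no EZH2 peak in either genotype. All 7 KO peaks had scores of 4 to 6, and the 3 WT peaks had scores of 7, 9 and 11. Over the whole EZH2 lists, 21.2% of the KO peaks and 65.5% of the WT peaks had a score of 7 or more, a gap in the same direction.

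The EZH2 peaks of the member windows were too few to set their overlap with H3K27me3 apart from the whole lists. In KO 2 of 7 EZH2 peaks overlapped an H3K27me3 peak (28.6%, 3.67 to 71.0), against 19.0% over the whole list, and in WT 0 of 3 did (0 to 70.8), against 14.0% over the whole list. The 2 KO sites lay upstream of HLA-DQA2, at 32736526 to 32736732, and downstream of HLA-DOA, at 33003495 to 33003712. HLA-DQA2 had a further EZH2 peak of 169 bp upstream in KO, 1932 bp from the nearest H3K27me3 peak, and none in WT, so 2.38% of its window was covered in KO. Near HLA-DOA a KO peak of 218 bp and a WT peak of 248 bp lay on the same downstream side without overlapping. HLA-DPA1 had an EZH2 peak inside the gene in each genotype, 251 bp in KO and 163 bp in WT, at different positions, and its KO window held a further peak of 384 bp downstream. No EZH2 peak of a member window overlapped between the genotypes, where 7.97% of the whole KO list and 5.13% of the whole WT list did.

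Genes that act with the class II molecules were set against the same shares of all genes, 23.1% in KO and 26.1% in WT for H3K27me3, and 18.4% in KO and 27.2% in WT for EZH2. Counts this small do not set these lists apart from all genes. Of 6 other genes of the class II pathway, 1 had an H3K27me3 peak in KO and 2 in WT: HLA-DRB5, given above, and CTSS, a protease that trims the invariant chain (no coverage in KO and 0.904% in WT). CTSS also had an EZH2 peak in KO (0.888%) and none in WT. HLA-DMA, HLA-DMB, the invariant chain gene CD74 and IFI30 had no peak of either antibody. Of 15 regulators, 2 had an H3K27me3 peak in KO and 2 in WT, and 1 had an EZH2 peak in KO and 3 in WT. CIITA, the class II coactivator on chromosome 16, had 3 H3K27me3 peaks in each genotype (1.21% in KO and 1.48% in WT), and 2 EZH2 peaks in KO and 1 in WT. NFYB had 0.765% H3K27me3 coverage in KO and none in WT, and NFYA, which with NFYB forms part of NF-Y, none in KO and 1.03% in WT. JAK1 and JAK2, kinases of interferon signalling, had no EZH2 peak in KO, and in WT 0.241% of the JAK1 window and 0.178% of the JAK2 window were covered. RFX5, RFXAP and RFXANK, the subunits of RFX, had no peak of either antibody.

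Class I genes, which present peptides from inside the cell, lie nearby on chromosome 6 in part. Of 17 class I pathway genes, 1 had an H3K27me3 peak in KO and 3 in WT, and 2 had an EZH2 peak in KO and 3 in WT, beside the same shares of all genes. HLA-G, a non-classical class I gene, had 5.73% covered by H3K27me3 in KO and 9.78% in WT. HLA-B had none in KO and 2.10% in WT, and HLA-C none in KO and 2.57% in WT. EZH2 covered 0.729% of the HLA-G window in KO and 1.64% in WT, and the HLA-B window had none in KO and 2.36% in WT. PSMB9 had 2.03% EZH2 coverage in KO and none in WT, and ERAP1, a peptide-trimming enzyme, none in KO and 0.0870% in WT. None of the genes of these 3 lists differed by 5 points for either antibody.

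By the 4 covered shares (H3K27me3 in KO and WT, EZH2 in KO and WT), the genes closest to the mean of the 10 members were NELL2 on chromosome 12, TDRD5 on chromosome 1, SMC1B on chromosome 22, UGT1A4 on chromosome 2 and GPNMB on chromosome 7. Their distances were 0.210 to 0.856 percentage points, over 4 libraries. NELL2 had 6.85% H3K27me3 coverage in KO and 5.75% in WT, beside member means of 7.01% in KO and 5.70% in WT.

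Peak lists do not measure expression, so neither the loss of ZCCHC8 nor the cell type was checked by level. Of 8 renal epithelial and carcinoma marker genes none had an H3K27me3 peak, against 23.1% of all genes in KO and 26.1% in WT. Only KRT8 had an EZH2 peak, 1 in WT, against 18.4% of all genes in KO and 27.2% in WT. A list this small is not set apart from all genes by these counts. Of 7 markers of lymphoid and antigen-presenting cells, 3 had an H3K27me3 peak in KO and 2 in WT, against 23.1% of all genes in KO and 26.1% in WT, with CD3E, a T cell receptor component, at 6.29% in KO and 1.41% in WT. H3K27me3 covered 0.153% of the PTPRC window in KO and 0.426% in WT, and 1.44% of the ITGAX window in KO and none in WT. EZH2 covered 2.72% of the CD3E window in KO and 1.25% in WT, and none of the PTPRC window in KO and 0.252% in WT.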

How the data were processed

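Formaldehyde-fixed, sonicated ACHN chromatin was precipitated with each antibody, per the labels' protocols. The submitters' processing notes name cutadapt 1.9.3, Bowtie2 2.2.4 and the build hg38. They name no peak caller, depth or score definition. The authors called each list against the input of the same genotype, per the peak names, which carry 1e-3. Each deposited list holds the peak's length in bp and the authors' score, which was used only to filter and describe. Of 6 samples, 4 have a list, and the 2 inputs entered only as controls. Samples were grouped by genotype and antibody label.

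Coordinates were read as 1-based, since the deposited length equals end minus start plus 1. Identical lines (up to 81 per peak) were counted once, which left 69840 H3K27me3 peaks in KO and 93095 in WT, and 19566 EZH2 peaks in KO and 30734 in WT. Genes came from RefSeq (GRCh38.p14), and all 10 members matched. Rows placed on unplaced or alternate scaffolds were left out. Windows are the gene plus 5 kb on both sides, and a covered share is the percentage of the window under a peak. A difference was counted from 5 points, a size set by hand. No test was made, as each group has 1 library.

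Sharing means an overlap of at least 1 bp. Promoters came from RefSeq, for 9 of 10 members, HLA-DRA not being among them, and HLA-DPA1 has 2 entries. Python 3.11.15, NumPy 2.4.6, pandas 2.3.3, SciPy 1.17.1 and matplotlib 3.10.9 were used, and the coverage routines were tested on simulated data. Members and lists were chosen with earlier results of these data known. Named genes are all members, every gene of the companion lists with a peak, and the 5 genes with the closest covered shares. HLA-DMA, HLA-DMB, CD74, IFI30, TAP1, TAP2, PSMB8, BRD2 and the RFX genes were named as genes without H3K27me3 after their values were seen. Alternatives changed the score threshold, list size, window, peak width, overlap and members.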

Additional observations from a re-analysis of the deposited data

How the results depend on the processing

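No paired analysis was possible because each antibody and genotype has 1 library and no result comes from a test. The net H3K27me3 difference over the member windows, 0.102 points (KO minus WT), turned to -3.55 with scores below 7 left out, -0.667 without flanks, -1.05 with 2 kb, -1.29 with 10 kb, and -0.105 with peaks below 250 bp left out. Alternatives added after seeing the data gave -0.535 (scores below 5 left out) and -1.42 (below each list's median score). It was 0.225 with the WT list shortened by score and 1.71 without HLA-DRB1, HLA-DQA1 and HLA-DQB1. H3K27me3 members in KO numbered 4 at scores of 7 or more and 5 of the 7 left without those 3 genes, in place of 8, and members in WT 5 without flanks, in place of 10. Without flanks KO had 6, and with 10 kb KO and WT had 10 each. All-gene shares are given only for gene plus 5 kb with all peaks kept. None stands beside the member counts at other windows, score limits or peak widths, so those counts cannot be set against all genes. Members higher in KO by 5 points numbered 0 at scores of 7 or more, in place of 2. Members lower in KO by 5 points, 0 as reported, were 2 at scores of 7 or more, without flanks, with 2 kb, with 10 kb and above the list medians, and 1 with narrow peaks or scores below 5 left out. HLA-DRA turned to -1.31 points at scores of 7 or more, and HLA-DQA1 to 0.187 with narrow peaks left out. WT H3K27me3 peaks with a KO partner were 48.6% within 1 kb and 12.0% at scores of 7 or more, in place of 28.6%.

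The EZH2 difference, 0.490 points, turned to -0.451 at scores of 7 or more, and was 0.321 without flanks, 0.0479 with 2 kb, 0.0305 with 10 kb and 0.156 without narrow peaks. EZH2 members in KO numbered 0 at scores of 7 or more, 2 without flanks and 1 without narrow peaks, in place of 5, and in WT 1 without flanks and 1 without narrow peaks, in place of 3. No all-gene share is given for these settings, and the cause of these changes was not tested. Overlap of EZH2 with H3K27me3 in KO at scores of 7 or more could not be computed, as no EZH2 peak was left. With unknown depth, a missing peak does not show a missing mark.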
